A study of Homo sapiens with 4 samples.

Results

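S100 genes encode small calcium-binding proteins, and 10 of them that are known from epidermis were followed here through 4 RNA-seq libraries of HaCaT, an immortalized line of human keratinocytes. The members were chosen by name and are S100A2, S100A4, S100A6, S100A7, S100A8, S100A9, S100A10, S100A11, S100A14 and S100A16. They are 10 of the 19233 protein-coding genes in the deposited tables, which list 44591 genes of all classes. The cells were a single group without any treatment, grown in Dulbecco's modified Eagle medium with 12% fetal bovine serum by the sample labels, and total RNA was sequenced in 4 replicates. The data therefore give the level of each S100 gene and its spread in 1 cell line, and no comparison between conditions.

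An S100 protein carries a pair of EF-hand motifs, which change shape when calcium is bound, and most members work as dimers that then grip a target protein. Inside the keratinocyte they bind annexins, cytoskeletal proteins and cell cycle regulators. Some are released from stressed or inflamed epidermis, where they act on receptors of neighbouring cells or sequester metals needed by microbes. Many of the genes lie next to the genes of the cornified envelope in the epidermal differentiation complex of chromosome 1.

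All 10 genes are on chromosome 1, between 151955386 and 153588808 in the coordinates of the files (hg19 by the submitters' processing notes), a span of 1.63 Mb that also holds 5 other S100A genes, with S100A13 and S100A1 just beyond its end. S100A10 and S100A11 stand at one end, and 1.32 Mb separate S100A11 from S100A9, the next S100A gene. S100A9 is on the plus strand and the other 9 are on the minus strand. The bases just before the start site are shown for 9 of the genes, because the levels described below differ between them and because several share a motif at the same distance from the start. The sequences are from RefSeq on GRCh38.p14, give the last 60 bases before the annotated start in the direction of the gene, and have in capitals a match to TATAA or to TGANTCA. The first 4 belong to the genes with the largest excess of replicate 1 over the other replicates.

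S100A4 (chr1:153545807-153545866, minus strand): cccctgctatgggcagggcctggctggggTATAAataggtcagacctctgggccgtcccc
S100A6 (chr1:153535992-153536051, minus strand): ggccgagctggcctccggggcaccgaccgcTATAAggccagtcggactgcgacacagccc
S100A14 (chr1:153616326-153616385, minus strand): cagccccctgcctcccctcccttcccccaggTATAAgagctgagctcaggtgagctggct
S100A7 (chr1:153460652-153460711, minus strand): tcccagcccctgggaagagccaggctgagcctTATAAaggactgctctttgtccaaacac

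The next 3 belong to a gene with almost the same level in replicate 1 as elsewhere, and to the 2 abundant genes that were lowest in replicate 1. Of the 3 promoters of S100A8, the 1 with TATAA is shown.

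S100A8 (chr1:153391074-153391133, minus strand): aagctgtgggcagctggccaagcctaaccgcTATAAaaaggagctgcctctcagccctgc
S100A10 (chr1:151993860-151993919, minus strand): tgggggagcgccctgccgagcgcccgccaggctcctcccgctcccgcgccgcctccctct
S100A11 (chr1:152037005-152037064, minus strand): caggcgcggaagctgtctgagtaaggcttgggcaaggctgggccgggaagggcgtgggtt

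S100A9, the partner of S100A8, and S100A2, which has the match to the AP-1 consensus in the 1 of its 2 promoters that is shown, follow. S100A9 was also lowest in replicate 1, and S100A2 was highest there. S100A16, which is not shown, was highest in replicate 1 too and had no TATAA in either of its 2 promoters.

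S100A9 (chr1:153357794-153357853, plus strand): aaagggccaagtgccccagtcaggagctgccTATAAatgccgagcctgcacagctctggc
S100A2 (chr1:153565845-153565904, minus strand): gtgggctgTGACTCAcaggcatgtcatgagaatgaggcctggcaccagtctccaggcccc

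All 10 genes matched the RefSeq table, with 14 promoters in all. TATAA, the core of the TATA box, was searched on the strand of the gene in the 50 bases before the start, and 6 of the 10 genes had it in at least 1 promoter. It began at -31 in S100A4, -30 in S100A6, -29 in S100A8, S100A9 and S100A14 and -28 in S100A7, counted from the start site. Of 35116 RefSeq promoters, 4.74% had TATAA in the same window, and 6 of the 14 promoters of these genes did. GGGCGG, the core of the GC box, was searched on both strands of the 250 bases before the start and was found in S100A6, S100A9, S100A10, S100A11 and S100A16. These were 5 of the 14 promoters, against 42.6% of all promoters. TGANTCA, the consensus of AP-1, was in 1 of the 14 promoters, that of S100A2, and in 6.57% of all promoters, again on both strands of 250 bases. The letters GAAANNGAAA, which occur in interferon response elements, were in none of the 14 promoters and in 3.02% of all. TATAA was present in S100A4 and S100A6 and also in S100A9 and S100A8, whose levels were far lower, and it was not in the windows of S100A10, S100A11, S100A2 and S100A16. These matches describe the letters only, since no binding or start site was measured in these cells.

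The level of a gene is given as TPM, which is its read count divided by its length and scaled to 1000000 over the protein-coding genes of a replicate, so that levels of different genes can be set beside each other. Replicate 1 held 73082279 counted reads, and replicates 2 to 4 held 17056035 to 19745170. Protein-coding genes took 76.1% of the reads in replicate 1 and 95.3 to 96.4% in the others, and replicate 1 stood apart from the rest across many genes. All 10 markers of keratinocytes had a mean TPM above 1, and KRT14, the keratin of basal keratinocytes and the highest of them, had 6824, 7642, 6547 and 6375 TPM in replicates 1 to 4. The other markers were less even. DSP was highest in replicate 1, with 534, 271, 75.2 and 255 TPM in replicates 1 to 4, and ITGB4 was lowest there, with 105, 453, 186 and 471 TPM. The study calls the libraries biological repeats, and the sources used here do not say whether they came from separate cultures, so the p-values below measure only the spread between these samples. In bulk RNA a smaller number of cells with a transcript and less transcript per cell cannot be told apart.

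All 10 S100 genes were detected, with a mean TPM above 1, the limit that 12165 protein-coding genes passed. Their levels spanned from S100A11, with a mean of 1780 TPM, to S100A8, with 4.64 TPM. Together they held 9230, 6534, 5890 and 5707 TPM in replicates 1 to 4, and the mean was 6840 ± 1632 (SD, n = 4). By reads they took 0.347% of the protein-coding reads in replicate 1 (95% Clopper-Pearson interval 0.345 to 0.349%). In replicate 2 the share was 0.230% (0.228 to 0.233%), in replicate 3 it was 0.237% (0.235 to 0.239%), and replicate 4 had 0.196% (0.194 to 0.198%). On this scale the summed level was highest in replicate 1. That order turned with TPM over all 44591 genes, where the sums were 2857, 5792, 5151 and 5307, and in the units as deposited, where replicate 1 had 3069 and replicate 4 had 5307. All intervals given here allow for the counting of reads alone, and copies made by PCR could not be recognised in the counts.

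**Figure D1:**
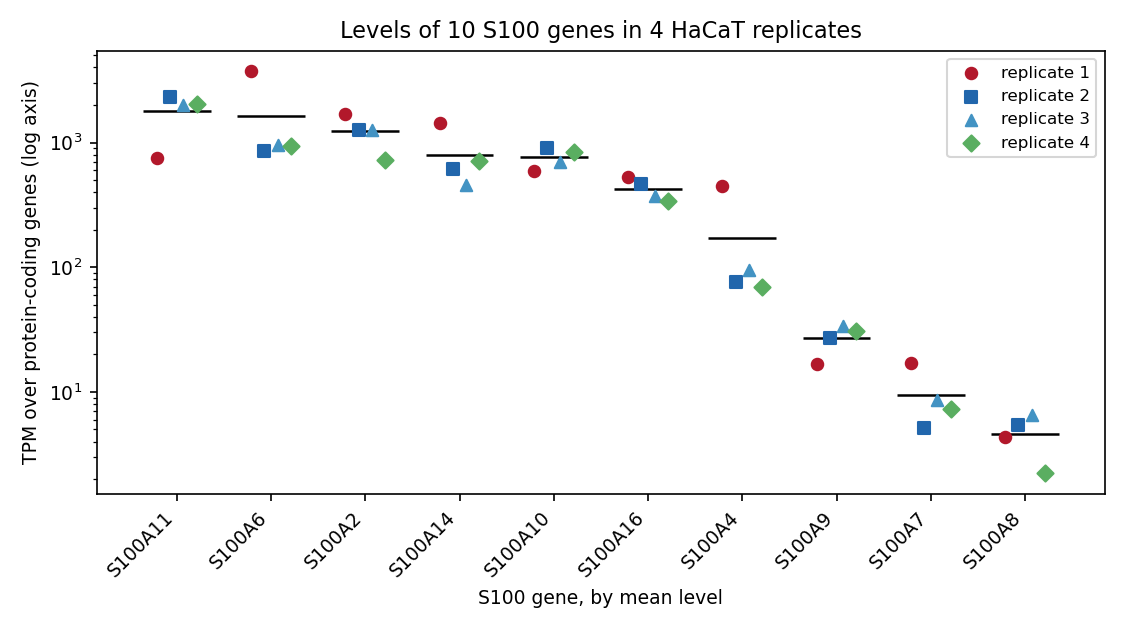
TPM over protein-coding genes (log axis) of the 10 S100 genes in each HaCaT replicate, with the mean of 4 replicates as a line. S100A11, S100A6, S100A2, S100A14, S100A10 and S100A16 stayed above 300 TPM in every replicate, and replicate 1 sat apart from the others for S100A6, S100A4 and S100A11.

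S100A11, a partner of annexin A1 that is also part of the cornified envelope, had the highest mean, 1780 ± 699 TPM (SD, n = 4). Replicate 1 had 753 TPM, and replicates 2, 3 and 4 had 2320, 2012 and 2037 TPM. It was thus the highest of the 10 genes in replicates 2, 3 and 4 and only the fourth in replicate 1. S100A6 (calcyclin), which is linked to proliferating cells, had the second mean, 1626 ± 1420 TPM (SD, n = 4). Its values were 3755, 853, 954 and 941 TPM in replicates 1 to 4. Replicate 1 was 4.10 times the mean of the other replicates, while these 3 differed by no more than 1.12-fold.

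S100A2, a nuclear member typical of basal keratinocytes, had 1697, 1272, 1252 and 727 TPM, a mean of 1237 ± 397 (SD, n = 4). It was the second gene in replicates 1, 2 and 3 and the fourth in replicate 4, which had the lowest value. S100A14, a member of epithelial cells, had 1423, 612, 453 and 707 TPM, a mean of 799 ± 429 (SD, n = 4). S100A10 (p11), which does not bind calcium and forms a tetramer with annexin A2, had 589, 899, 702 and 846 TPM, a mean of 759 ± 141 (SD, n = 4). The replicates of S100A10 lay close together, within 1.53-fold from lowest to highest. S100A16, a widely expressed member, had 528, 466, 374 and 339 TPM, a mean of 426 ± 86.3 (SD, n = 4), and was the sixth gene in every replicate. The means of these 6 genes were at or above the 97.5th percentile of the 12165 detected genes, from 97.5 for S100A16 to 99.4 for S100A11.

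S100A4, a member of motile cells that binds non-muscle myosin, stood in the middle of the order with 446, 76.0, 95.5 and 69.7 TPM, a mean of 172 ± 183 (SD, n = 4). It was the seventh gene in every replicate although replicate 1 was 5.55 times the mean of the others. The SD of log2(TPM + 1) over the 4 replicates was 1.25 for S100A4 and 1.02 for S100A6, at the 92.8th and 87.1st percentiles of all detected genes. S100A10 and S100A16 were at the 16.6th and 18.7th percentiles of the same measure.

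The 3 members best known from inflamed skin were the lowest. S100A9, the larger subunit of calprotectin, had 16.6, 26.9, 33.9 and 30.7 TPM, a mean of 27.0 ± 7.52 (SD, n = 4). S100A7 (psoriasin), an antimicrobial protein of psoriatic epidermis, had 17.0, 5.14, 8.62 and 7.34 TPM, a mean of 9.52 ± 5.17 (SD, n = 4). S100A8, the smaller subunit of calprotectin, had 4.36, 5.39, 6.59 and 2.22 TPM, a mean of 4.64 ± 1.85 (SD, n = 4). S100A9 was near the middle of all detected genes, at the 53.3rd percentile, and S100A7 and S100A8 were at the 25.7th and 14.4th. These low levels rest on few reads, 12 to 77 for S100A8, 15 to 181 for S100A7 and 103 to 233 for S100A9.

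The order of the means was examined for the 9 pairs of neighbours by the difference of log2(TPM + 1) within each replicate. The pairs and their order came from the same values, so the tests are no independent support for that order. Each difference was tested by an exact, two-sided permutation of its signs, in which 2 of 16 sign patterns give the smallest possible p, so no pair could pass 0.05. In 4 pairs all replicates had the same order, and each of these had that smallest p (exact permutation p = 0.13), or 0.281 after Benjamini-Hochberg adjustment over the 9 pairs. The largest of these differences was that of S100A4 over S100A9, 2.19 ± 1.66 on the log2 scale (SD, n = 4), followed by S100A16 over S100A4 with 1.77 ± 1.05 (SD, n = 4). S100A10 exceeded S100A16 by 0.83 ± 0.49 and S100A2 exceeded S100A14 by 0.70 ± 0.67 on the log2 scale (SD, n = 4). These last differences depended on the length used, since S100A10 over S100A16 was 0.51 with the exons of protein-coding transcripts as length (exact permutation p = 0.25) and 0.15 without length (exact permutation p = 0.625), and S100A2 over S100A14 was 0.27 (exact permutation p = 0.5) and 0.56 (exact permutation p = 0.25). Neither pair then kept 1 order in every replicate, and 3 of the 9 pairs did under each of these settings. The mean difference of S100A9 over S100A7 was 1.49 ± 1.02, but in replicate 1 both were near 17 TPM (exact permutation p = 0.25, adjusted 0.375). That of S100A7 over S100A8 was 0.85 ± 0.85, with the 2 genes level in replicate 2 (exact permutation p = 0.25, adjusted 0.375). S100A11 and S100A6 differed by 0.33 ± 1.77 (exact permutation p = 0.75, adjusted 0.964) and S100A6 and S100A2 by 0.14 ± 0.79 (exact permutation p = 0.875, adjusted 0.984), so the order of the 3 highest genes did not hold up against the spread. S100A14 and S100A10 differed by -0.04 ± 0.89 on the log2 scale (exact permutation p = 1, adjusted 1), and S100A14 was the higher in replicate 1 alone. Without replicate 1, 7 of the 9 pairs kept 1 order in the remaining replicates, but S100A2 then exceeded S100A6 by a mean of 0.20.

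Replicate 1 held the highest or the lowest value for 9 of the 10 genes, S100A8 being the exception. It was the highest for 6, namely S100A4, S100A6, S100A14, S100A7, S100A2 and S100A16, against 40.2% of all detected genes. It was the lowest for 3, S100A11, S100A9 and S100A10, against 37.4% of all detected genes. Both shares were of the order found over all genes, so they say nothing particular to the S100 genes. A range of at least 4-fold on the scale of TPM + 1 was found for 2 of the 10, S100A4 and S100A6, against 18.3% of all detected genes. None of the 10 had such a range over replicates 2 to 4, where 1.73% of the detected genes did.

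The S100 genes did not move together between replicates. On the log2(TPM + 1) scale, replicate 1 exceeded the mean of replicates 2 to 4 by 2.47 for S100A4, 2.04 for S100A6, 1.29 for S100A14, 1.19 for S100A7, 0.69 for S100A2 and 0.44 for S100A16. The difference was -0.46 for S100A10, -0.83 for S100A9 and -1.49 for S100A11, and it was near 0 for S100A8. S100A4 stood at the 98.2nd percentile and S100A6 at the 96.9th percentile of this difference over all detected genes, and S100A11 at the 11.7th. The median over all detected genes was 0.03, so on this scale the differences hardly shift when taken relative to it.

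**Figure D2:**
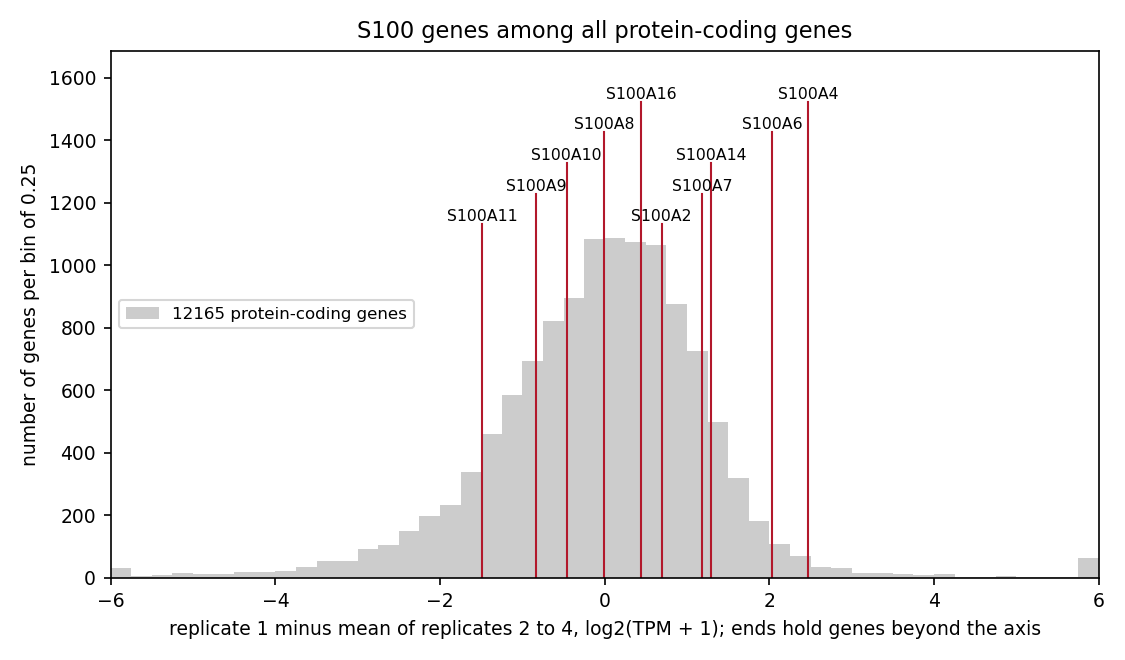
Number of protein-coding genes (bars, bins of 0.25) by the difference of log2(TPM + 1) between replicate 1 and the mean of replicates 2 to 4, with a line for each of the 10 S100 genes. The S100 genes spread from -1.49 for S100A11 to 2.47 for S100A4, on both sides of the median of all 12165 genes at 0.03.

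The scaling mattered for the sign of these differences. When TPM was taken over all 44591 genes, the median difference of the detected protein-coding genes was -1.30, and with the units as deposited it was -0.88. On the first of these scales the differences of S100A2, S100A7, S100A14 and S100A16 turned negative, and on the second those of S100A2 and S100A16. Only S100A4 and S100A6 were then still highest in replicate 1, while 3.75% and 5.27% of all detected genes were. Relative to the median of all genes, under the scaling used here and 6 others, S100A4 was higher in replicate 1 by 2.24 to 2.44 and S100A6 by 1.80 to 2.01. S100A14 was higher by 1.06 to 1.26 and S100A7 by 0.82 to 1.15, and S100A11 was lower, with -1.72 to -1.52. S100A8 kept no sign, with -0.08 to 0.23.

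S100A4 and S100A6, the 2 members with a mean above 10 TPM that varied most, had like profiles over the 4 replicates, with a root mean square difference of 0.243 between their centred log2 levels. Among 8936 protein-coding genes with a mean above 10 TPM, the 5 nearest to S100A4 were NDUFB1, CSTA, HBP1, SERPINB5 and AKR1C2, with root mean square differences of 0.126 to 0.220. NDUFB1, a subunit of respiratory complex I, had 390, 82.0, 104 and 70.3 TPM. CSTA, which encodes the protease inhibitor cystatin A of the cornified envelope, had 284, 42.1, 75.2 and 52.2 TPM. The 5 nearest to S100A6 were RGS2, SLC35A5, HBP1, PEX13 and NDUFB5, with 0.0776 to 0.117, and HBP1 was thus in both lists. All of these genes were picked for their likeness, and the likeness rests on 4 points of which replicate 1 is the one that stands apart.

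**Figure D3:**
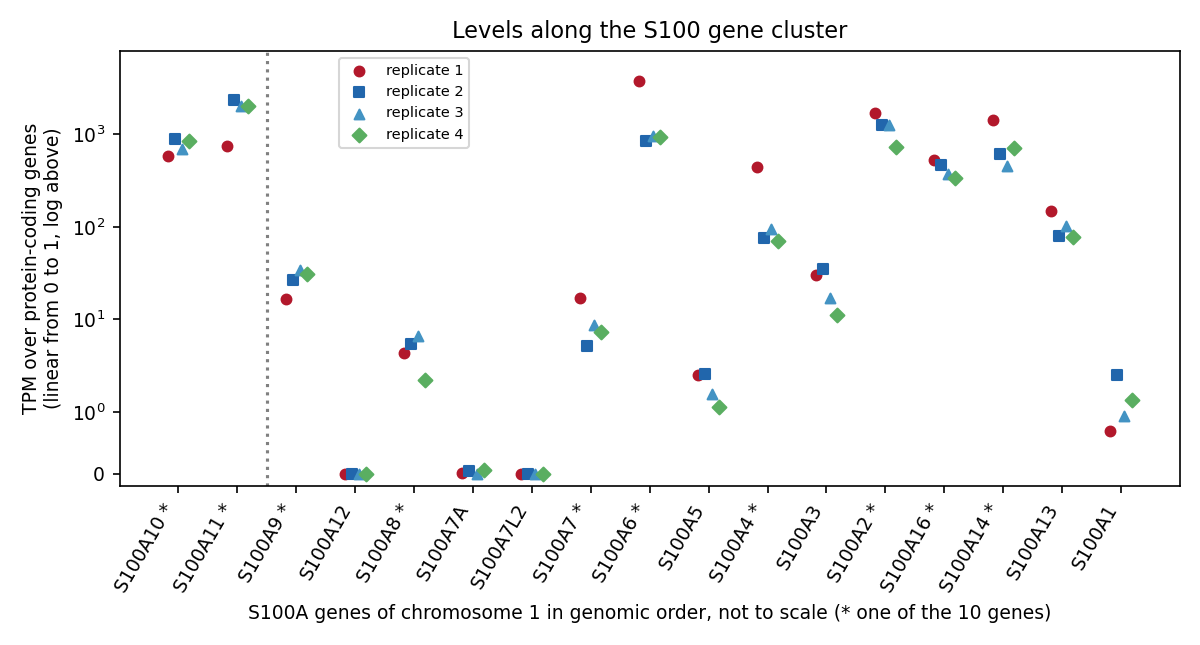
TPM of the 17 S100A genes of chromosome 1 in genomic order (not to scale), linear from 0 to 1 TPM and on a log axis above, with a dotted line at the gap of 1.32 Mb after S100A11. Genes at 0 or near it (S100A12, S100A7A, S100A7L2) lie between S100A9, S100A8 and S100A7, and those above 300 TPM in every replicate stand on both sides of these.

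Genes next to each other in the cluster had very different levels. S100A12, S100A7A and S100A7L2 lie among S100A9, S100A8 and S100A7, and S100A12 and S100A7L2 had no read in any replicate. A count of 0 allows up to 3 reads, which is 0.265 TPM for S100A12 in replicate 1 and 0.968 TPM in replicate 2. S100A7A had 1, 1, 0 and 2 reads. Between S100A6 and S100A4 lies S100A5, with 2.49, 2.54, 1.57 and 1.13 TPM, 905 bases from S100A6, which had 336 to 1507 times its TPM. S100A3, a protein of the hair cuticle, lies beside S100A4 and had 29.9, 34.9, 17.2 and 11.1 TPM. Next to S100A14, S100A13 had 148, 80.3, 103 and 77.0 TPM, the highest of the S100 genes outside the 10. S100P, which lies on chromosome 4, had 55.9 TPM in replicate 1 and 7.37, 3.49 and 4.47 in the others, a split in the same direction as that of S100A4 and S100A6. Of the 11 other S100 genes, S100A7L2, S100A12, S100G and S100Z had no read in any replicate.

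Taken from start to end with introns included, some members share bases with a gene on the opposite strand. The sources used here do not say whether the counting used strand. The longest such overlap, 6060 bases, is between S100A8 and S100A7A. Most of it lies outside the length given for S100A8, which is 726 bases. The summed reads of S100A7A were 2.53% of those of S100A8. In replicate 4 that share was 16.7%, 2 reads against 12. S100A4 shares 65 bases with LOC101928034, which had 0.294% as many reads as S100A4 in replicate 1 and 27.4%, 8.47% and 18.4% in replicates 2 to 4. S100A6 shares 516 bases with an antisense gene that had at most 0.358% as many reads in any replicate. How many reads fell on the shared bases was not tested, so the levels of S100A4 in replicates 2 to 4 and of S100A8 in replicate 4 are uncertain to that extent.

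S100A8 and S100A9 form the heterodimer calprotectin, yet their transcripts were unequal. Per length, S100A8 had 0.263 reads per read of S100A9 in replicate 1 (95% Clopper-Pearson interval 0.200 to 0.341). Replicate 2 had 0.201 (0.13 to 0.311), replicate 3 had 0.194 (0.136 to 0.272) and replicate 4 had 0.0723 (0.0364 to 0.131). S100A9 was the higher in every replicate, with a mean ratio of 0.182 ± 0.0797 (SD, n = 4), and the interval of replicate 4 lay below those of replicates 1 and 3. Both genes are also abundant in neutrophils and monocytes, so markers of these cells were read beside them. Of 10 myeloid markers, 2 had a mean TPM above 1 (CD14 and CD68), FCGR3B, TYROBP and MPO had no read, and PTPRC, which encodes the pan-leukocyte protein CD45, had 3 reads in replicate 1 and none elsewhere. The summed level of the 10 markers was 11.2, 52.7, 43.5 and 25.5 TPM in replicates 1 to 4. Most of it came from CD68, with 7.94, 43.9, 38.2 and 16.1 TPM, and CD14, with 3.03, 8.08, 4.99 and 8.92 TPM.

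S100A10 is held in a tetramer by annexin A2, and the annexin was far more abundant as RNA. ANXA2 had 3159, 3752, 4413 and 2546 TPM and was the highest of the 8 partner genes. Per length, S100A10 had 0.186, 0.240, 0.159 and 0.332 reads per read of ANXA2 in replicates 1 to 4, and the mean was 0.229 ± 0.0764 (SD, n = 4). The ratio did not single out replicate 1, which lay between replicates 3 and 2. It depended on the length used, with a mean of 0.334 when the length was the exons of protein-coding transcripts and 0.134 without length.

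S100A11 per ANXA1 did single out replicate 1, with 0.562 there and 2.18, 2.63 and 2.11 in the others. Per length, S100A11 was below ANXA1, its annexin partner, in replicate 1 alone. By reads without length it was also below in replicate 2, with 9160 against 10857, and in replicate 4, with 9017 against 11021. S100A6 exceeded CACYBP, which encodes the calcyclin-binding protein, 54.2-fold in replicate 1 and 10.2, 10.3 and 11.8-fold in replicates 2 to 4. S100A7 had 0.750, 0.229, 0.735 and 0.519 reads per read of FABP5, the fatty acid-binding protein it associates with in skin, on few reads of either gene. Across the partner list, 7 of 8 genes were detected. Of these, 4 were highest in replicate 1 and 1 was lowest, against 40.2% and 37.4% of all detected genes. With only 7 genes, these counts say nothing particular to the partners.

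**Figure D4:**
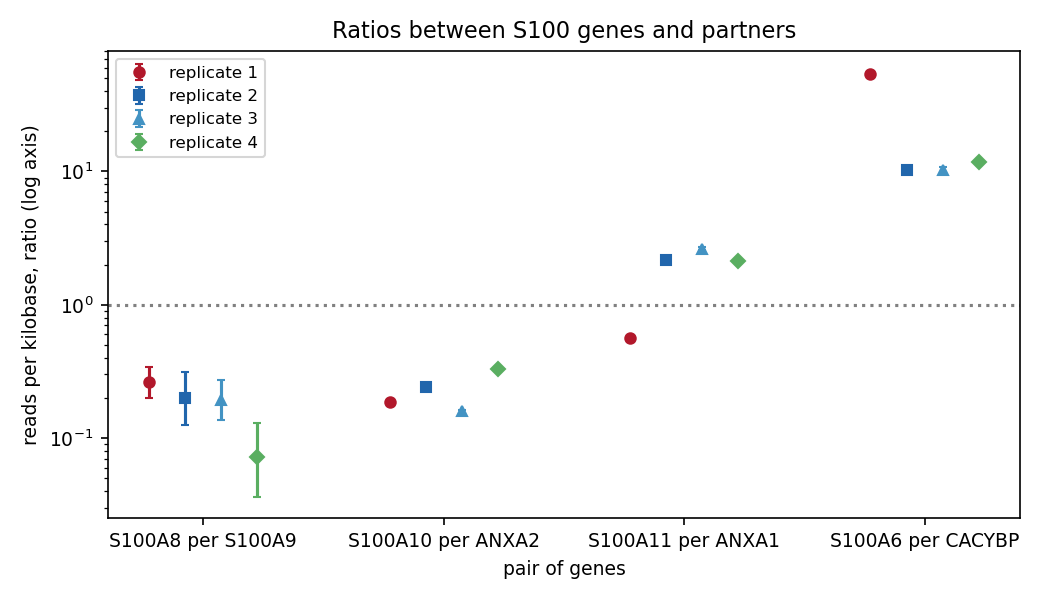
Ratio of reads per kilobase (log axis) of an S100 gene to that of a partner in each replicate, with 95% Clopper-Pearson intervals of counting error and a dotted line at equal levels. Replicate 1 stands apart for S100A11 per ANXA1 (0.562) and S100A6 per CACYBP (54.2), but not for S100A10 per ANXA2 (0.186).

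Receptors for released S100 proteins were read in the same libraries. AGER, which encodes RAGE, the classical S100 receptor, had 0.921, 6.81, 2.43 and 3.52 TPM. TLR4, a receptor of calprotectin, had 0.0285 TPM in replicate 1 and 3.38, 1.54 and 1.25 TPM in the others. BSG (basigin), another receptor of S100A9, was the highest of the 6, with 315, 848, 758 and 776 TPM. The mRNA of BSG was thus well above that of S100A9. Both were lowest in replicate 1, as were 37.4% of all detected genes. Of the 5 receptors detected, 3 were lowest in replicate 1 and none was highest, against 37.4% and 40.2% of all detected genes. With only 5 genes, these counts say nothing particular to the receptors.

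Markers of keratinocyte differentiation and of the interferon response differed between the same replicates, and their part in the S100 levels was not tested. Of 8 detected differentiation genes out of 11, 6 were highest in replicate 1, against 40.2% of all detected genes. A range of at least 4-fold was found for 6 of the 8, against 18.3%. The median difference of these 8 between replicate 1 and the others was 2.05 on the log2 scale. It was 0.57 for the 10 S100 genes and 0.03 for all detected genes. KRT1, with 124, 0.430, 0.545 and 0.219 TPM, passed the detection limit through replicate 1 alone. The counts and the median of the 8 therefore lean on the replicate that was compared. KRT10, a keratin of suprabasal keratinocytes and the highest of that list, had 229, 31.3, 52.4 and 47.4 TPM. In that same replicate 1, S100A4, S100A6, S100A14, S100A7, S100A2 and S100A16 were highest while S100A9, S100A10 and S100A11 were lowest. All 15 interferon-induced genes were detected and had at least a 4-fold range, against 18.3% of all detected genes. This list was chosen with earlier results of these data known. The pattern was another one, since these genes were high in replicates 2 and 3. Their summed level was 676, 11792, 11368 and 1055 TPM in replicates 1 to 4. Among the 10 S100 genes, 1 had replicates 2 and 3 both above replicates 1 and 4. This was S100A8, whose 4 values stayed within 2.97-fold and rested on 12 to 77 reads. The share of all detected genes with that order was not counted, so the count says nothing particular to the S100 genes.

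**Figure D5:**
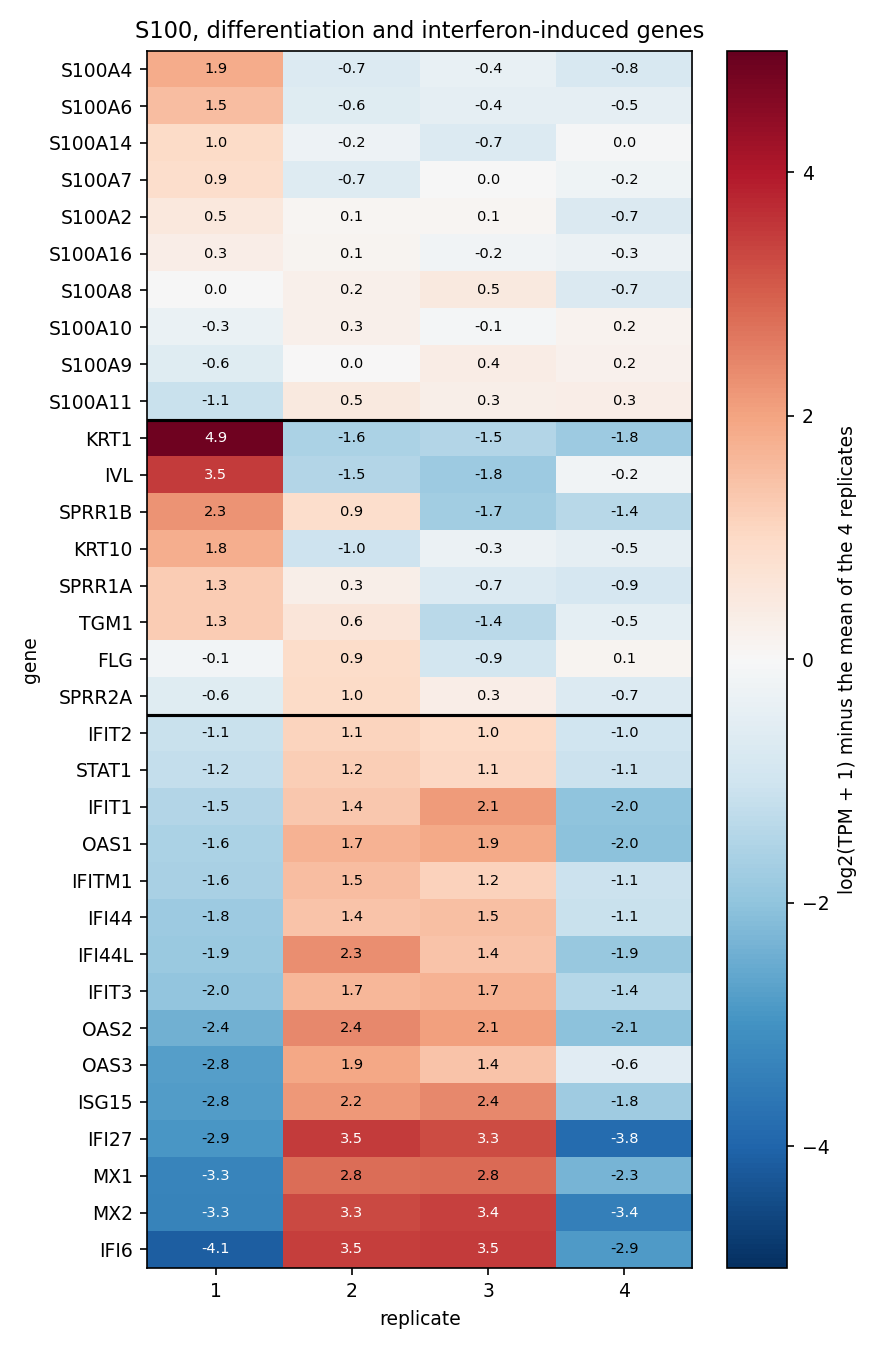
log2(TPM + 1) of each gene minus its mean over the 4 replicates, for the 10 S100 genes, the 8 detected differentiation genes and the 15 interferon-induced genes, ordered within each block by the difference of replicate 1 from the others. S100A4 and S100A6 share a high replicate 1 with KRT10, while the interferon-induced genes are high in replicates 2 and 3.

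Markers of the other cell types that skin cultures can hold were low. Of 7 fibroblast markers 2 had a mean TPM above 1, with 5.60, 5.20, 8.87 and 9.70 TPM summed over the list. Fibroblasts also carry S100A4 and S100A6, which were highest in replicate 1. The markers did not share 1 pattern, since COL1A1 was lowest in replicate 1, with 0.500, 4.92, 1.88 and 8.54 TPM, while DCN, with 1.63, 0, 0.618 and 0 TPM, and LUM, with 3.35, 0, 1.21 and 0.381 TPM, were highest there. Their part in the S100 levels was not tested. Of 5 melanocyte markers 1 was detected, with 2.45, 3.73, 1.36 and 2.12 TPM summed over the list. S100B, an S100 gene of melanocytes and glia, had 8 reads in replicate 1 and none in the others.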

How the data were processed

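RNA-seq of untreated HaCaT was measured in 4 replicates, which formed 1 group by their labels. The authors deposited a raw count, a gene length and a position per gene for each replicate, with RPKM for replicates 1 and 2 and TPM for replicates 3 and 4. The deposited RPKM and TPM values are not on 1 scale, so TPM was computed from the deposited counts and lengths over protein-coding genes. The submitters' processing notes name hg19, HISAT2, TopHat2, Bowtie2 and HISAT without their roles. The counting program, the annotation and the use of strand are not given in the sources used here.

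The 10 members and the gene lists were chosen with earlier results of these data known. Every member is named. Of the lists, a gene is named with values where it is the highest of its list or enters a ratio. AGER, TLR4, KRT1, the S100 genes outside the 10 and single cell type markers were named after their values were seen. Likeness was taken for the 2 most variable members above 10 TPM, as the root mean square difference of centred log2(TPM + 1). A pseudocount of 1 was used, which understates the change of low genes. Detected means a mean TPM above 1. Ratios of counts have 95% Clopper-Pearson intervals, and a count of 0 allows up to 3 reads. Depth was 17056035 to 73082279 counts per replicate. Pairs were tested with exact sign-flip permutation tests. Differential expression was not tested, as there is 1 condition. The computations were checked on simulated data. Promoter sequences are those of RefSeq (GRCh38.p14), and exon lengths those of GENCODE release 29, found for 97.1% of protein-coding genes. Alternatives were 6 other scalings or lengths, a pseudocount of 0.1, other detection limits and leaving out each replicate. The alternatives for the number of genes highest in replicate 1, for each gene's mean and for its difference in replicate 1 were added after seeing the data. The software was SciPy 1.17.1, pandas 2.3.3 and NumPy 2.4.6 under Python 3.11.15, with matplotlib 3.10.9 for figures.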

Additional observations from a re-analysis of the deposited data

Results flagged for a closer look

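In 4 of 21 sets of 4 replicate values, 1 replicate lay far from the other 3, by a gap to its nearest neighbour whose share of the whole range was above Dixon's 95% critical value. Chance would give about 1 in 20 sets, or 1.05 of 21, if the values were independent and normally spread. The share of all detected genes above this limit was not counted. Replicate 1 was highest for 40.2% and lowest for 37.4% of all detected genes. The 4 sets can therefore not be read as particular to the S100 genes. For S100A6 the gap took 0.965 of the range, between 3755 TPM in replicate 1 and 954 TPM in replicate 3. S100A4 had a share of 0.932, with 446 TPM in replicate 1 and 95.5 TPM in replicate 3 as the next. The ratio of S100A6 to CACYBP had 0.963, with 54.2 in replicate 1 and 11.8 in replicate 4. S100P had 0.926, with 55.9 TPM in replicate 1 and 7.37 TPM in replicate 2. In all 4 sets the replicate apart was replicate 1, and the sets share libraries, and 2 of them share a gene, so they are not independent.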

How the results depend on the processing

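Of 365 values recomputed under the alternatives, 311 were counted as the same, by direction or nearness to the first value, 42 moved and 12 reversed. Among these 365, 190 were means and replicate 1 differences of single genes, of which 29 moved and 6 reversed. Some values counted as the same had still shifted much. In the units as deposited, the mean of S100A6 was 823 against 1626 ± 1420 at first, and that of S100A4 was 81.6 against 172 ± 183 (SD, n = 4). The replicate 1 difference of S100A8 was -0.005 at first and 0.24 without replicate 3. No paired analysis was possible because there is 1 group only.

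The mean summed level was 4777 with TPM over all genes, 4018 in the units as deposited and 2526 as counts scaled without length. With TPM over all genes, 6 members were lowest and 2 highest in replicate 1, against 81.7% and 3.75% of all detected genes. In the units as deposited, 5 were lowest, 2 highest and 4 had a 4-fold range, against 58.3%, 5.27% and 34.2%. The replicate 1 difference over all genes became -0.84 for S100A2, -0.20 for S100A7, -0.24 for S100A14 and -1.09 for S100A16, and in the deposited units -0.34 for S100A2 and -0.59 for S100A16. TPM over all genes counts RNA of other classes, and the deposited units also differ between replicates. The part of each was not tested. Without length, S100A6 over S100A2 was -0.36, and the S100A10 to ANXA2 ratio was 0.134, or 0.334 with exon length.

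Leaving out 1 replicate gave 0 (without replicate 1) to 2 members with a 4-fold range, with 1 without replicate 2, and 4 to 7 pairs in 1 order, with 7 without replicate 1. The difference of S100A6 over S100A2 was -0.20 (without replicate 1) to 0.38, that of S100A11 over S100A6 was -0.042 (without replicate 2) to 1.21, and that of S100A14 over S100A10 was -0.48 to 0.15, positive without replicate 2, 3 or 4. With few reads, S100A8 and S100A7 are the least precise.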
